A study of Mus musculus with 12 samples.

Results

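The red cell lineage miRNAs miR-486, miR-451 and miR-144 were examined in extracellular vesicles, the membrane particles that cells release, shed by mesenchymal stem cells of mouse bone marrow. The members were taken by name from the table of small RNA counts. They were mmu-miR-486a-5p, mmu-miR-486b-5p, mmu-miR-486a-3p, mmu-miR-486b-3p, mmu-miR-451a and mmu-miR-144-3p, which are 6 of 1978 rows with mouse miRNA names. The miR-486a and miR-486b rows of each arm held the same counts in every library, so the 6 rows are 4 measurements, called miR-486a-5p, miR-486a-3p, miR-451a and miR-144-3p below. Of these 4, 3 had enough counts to be tested and miR-144-3p had not.

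The 12 libraries form 4 groups of 3, named DZ, aFM, NY and PLL in the sample titles, with replicates A, B and C. All cells came from the bone marrow of C57BL/6 mice of SPF grade, and every library carries one and the same treatment label, an antigen intervention. The series' design text names ESPs, HCF and pLL, given at 2 µg/ml over 48 h, as the stimuli. PLL shares its name with pLL. What DZ, aFM and NY stand for, and whether any group was unstimulated, is not given in the sources used here, nor are the age of the mice or whether replicates are separate cultures. All p-values therefore rest on the spread among libraries alone, part or all of which could be technical.

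miR-451a and miR-144 are made from one primary transcript, which the erythroid transcription factor GATA1 switches on as red cell precursors mature. miR-486 lies within Ank1, the gene of a red cell membrane skeleton protein, and is also found in muscle. miR-451a is processed without Dicer, by the slicing activity of Argonaute 2, and its mature strand runs into the loop of its short hairpin. Both miR-451a and miR-486-5p are among the most abundant miRNAs of red cells and blood plasma.

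The RefSeq table of miRNA sequences (GRCm38.p6) matched 2 of the 6 members, miR-451a and miR-144-3p. Their mature strands are shown because these 2 miRNAs of one transcript differed widely in read counts. Capitals mark the seed, bases 2 to 8, with which a miRNA pairs to its targets. miR-144-5p is the other arm of the miR-144 hairpin, and miR-101a-3p, a miRNA from another chromosome, shares bases 2 to 7 with miR-144-3p.
miR-451a: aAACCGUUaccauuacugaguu
miR-144-3p: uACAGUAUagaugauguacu
miR-144-5p: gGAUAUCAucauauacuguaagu
miR-101a-3p: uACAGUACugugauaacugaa
No other entry among the 1679 mature miRNAs of that table shares the whole seed of miR-451a or of miR-144-3p.

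The hairpins show how close the 2 genes lie and how differently the mature strands sit in them. Mir144 is at chr11:78073005-78073070 and Mir451a at chr11:78073170-78073241, both on the plus strand of GRCm38.p6 and 99 bases apart. Capitals mark the mature strands.
Mir144: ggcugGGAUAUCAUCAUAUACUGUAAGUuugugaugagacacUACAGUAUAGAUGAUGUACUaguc
Mir451a: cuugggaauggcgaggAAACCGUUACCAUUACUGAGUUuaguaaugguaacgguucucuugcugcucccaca
In structures predicted by RNAfold, the loop of Mir144 spans bases 31 to 36 and lies between its arms (bases 6 to 28 and 43 to 62). The mature miR-451a takes bases 17 to 38 of its hairpin and its last 4 bases are the whole predicted loop (bases 35 to 38). Mir451b, annotated opposite Mir451a on the minus strand, had 0 counts in all 12 libraries.

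Libraries held 17607 to 60436 annotated counts, which was 10.3% to 60.7% of all their counts; the rest belonged to predicted loci without a gene name. Levels are given as CPM, counts in every 1000000 annotated counts, scaled by TMM, which sets libraries to a common level by their shared miRNAs. A read covers a whole mature miRNA, so levels are not divided by length. Of 7 mesenchymal marker miRNAs all 7 were detected and tested, with a summed level of 50364 to 153055 CPM. The high end is PLL replicate A, which held 4407 counts of the cartilage miRNA miR-140-3p against 111 to 215 in the other libraries.

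miR-486a-5p was one of the most abundant miRNAs in every library. It took 5.42% of annotated counts on average and ranked between 1 and 14 among 407 distinct miRNAs with a count. In DZ its level was 103162, 84952 and 43082 CPM in replicates A, B and C. In aFM it was 34706, 37979 and 37107 CPM, the narrowest spread of the 4 groups. In NY it was 59867, 93035 and 46692 CPM.
In PLL it was 28193, 44279 and 41520 CPM. Every aFM library was below every DZ and every NY library, every PLL library was below every NY library, PLL overlapped aFM, and PLL overlapped DZ through DZ replicate C alone. The order of the group means was DZ (77065 ± 30806 CPM), NY (66531 ± 23879), PLL (37997 ± 8602) and aFM (36598 ± 1695; SD, n = 3 each). No neighbours in that order passed the test described below (edgeR adjusted p = 0.984, 0.155 and 0.904), although PLL and NY did not overlap.

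**Figure D1:**
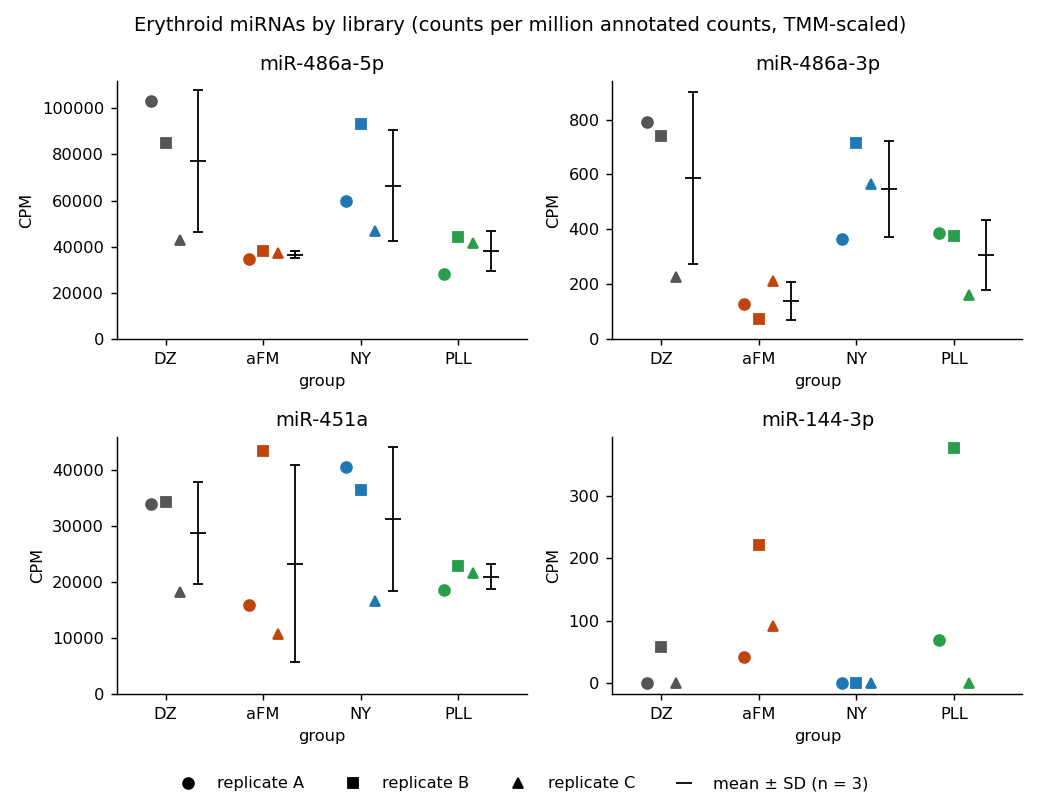
Level (CPM, vertical axes) of 4 erythroid miRNAs in each library, by group; symbols are replicates A, B and C, and bars give the mean ± SD of 3 libraries except for miR-144-3p, which had 15 counts or fewer per library. miR-486a-5p in aFM lies between 34706 and 37979 CPM, below all DZ and NY libraries, while miR-451a in aFM runs from 10727 to 43458 CPM.

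The other arm, miR-486a-3p, is the strand that is mostly discarded when the miR-486 duplex is loaded. Replicates A, B and C held 13, 13 and 6 counts in DZ and 3, 2 and 7 in aFM. The NY replicates held 11, 23 and 17 and the PLL replicates 17, 15 and 5, so its levels rest on few reads. DZ had a mean of 587 ± 312 CPM, NY of 548 ± 175, PLL of 307 ± 128 and aFM of 137 ± 69.6 (SD, 3 libraries each), and neighbours in this order did not pass the test (edgeR adjusted p = 0.984, 0.376 and 0.208). The aFM libraries (73.5 to 212 CPM) were again below all DZ (227 to 793 CPM) and all NY libraries (365 to 714 CPM), although the gap to DZ replicate C was small.
Within a library there were 0.194 to 1.37 counts of the 3p arm per 100 of the 5p arm, with a median of 0.688. The mean was 0.376 in aFM, against 0.722 in DZ, 0.862 in NY and 0.866 in PLL. The exact permutation test over the 4 groups gave p = 0.206 for this ratio and adjusted p = 0.309 over the 3 ratios tested and did not pass. Without PLL replicate C the exact permutation p was 0.0508, and without aFM replicate B it was 0.564.

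miR-451a, the other abundant member, took 2.60% of annotated counts on average and ranked between 7 and 18. Its level was 33960, 34311 and 18264 CPM in DZ replicates A, B and C. In aFM it was 15983, 43458 and 10727 CPM, so aFM held both the highest and the lowest of the 12 libraries. In NY it was 40707, 36556 and 16761 CPM. In PLL it was 18591, 22881 and 21730 CPM.
All groups overlapped. The order of the means was NY (31341 ± 12796 CPM), DZ (28845 ± 9165), aFM (23389 ± 17577) and PLL (21067 ± 2220, all SD, n = 3 each). Neighbours in that order did not pass the test (edgeR adjusted p = 0.984, 0.826 and 0.812).

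miR-144-3p had few reads although it shares the transcript of miR-451a. Replicates A, B and C held 0, 1 and 0 counts in DZ, 1, 6 and 3 in aFM and 3, 15 and 0 in PLL, and all NY replicates held 0. A library with 0 counts still allows up to 3 counts, or 95.4 CPM in PLL replicate C, 114 and 183 CPM in the DZ libraries at 0 and 93.1 to 99.8 CPM in NY; these limits cover counting error only. PLL replicate B alone held 15 of the 29 counts found, and aFM was the one group with a count in every library.
Over all libraries there were 8883 counts of miR-451a, 29 of miR-144-3p and 18 of miR-144-5p. Per group, miR-451a had 1916 counts against 10 of miR-144-3p in aFM, 192-fold more, and 2415 against 18 in PLL, 134-fold more. In NY it had 2910 counts against 0, at least 970.0-fold higher with the limit of 3 counts set over the group. In DZ there were 1642 counts of miR-451a and 1 of miR-144-3p.
The other arm, miR-144-5p, was as rare, with 0 counts in each DZ library, 1, 2 and 3 in aFM, 1, 1 and 1 in NY, and 2, 1 and 6 in PLL. Neither arm of miR-144 came near the counts of its neighbour. These are counts of reads, and whether different miRNAs were read with equal efficiency was not tested. By comparison miR-101a-3p, which shares most of the seed of miR-144-3p, had 14 to 179 counts per library.

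Differences between groups were tested with edgeR's quasi-likelihood test over 132 miRNAs, with adjustment over all of them and a threshold of 0.05. In aFM both miR-486 arms were called lower than in DZ, the 3p arm with a limit given below. For the 5p arm the means given above, 36598 and 77065 CPM, correspond to a log2 fold change of -1.07 ± 0.33 (SE; adjusted p = 0.0415). For the 3p arm, 137 and 587 CPM correspond to -2.00 ± 0.64 (adjusted p = 0.0471).
miR-451a did not pass, with a log2 fold change of -0.30 and a 95% interval from -1.34 to 0.74, which includes the value of the 5p arm. It was -0.55 without DZ replicate C. These 2 of 3 members called are to be read against 18.9% of all miRNAs called in this comparison, 9.85% as lower in aFM. The same 2 had all aFM libraries below all DZ libraries, as did 15.9% of all miRNAs. The median over the 3 tested members was -1.07 and over all tested miRNAs -0.14. DESeq2 called the same 2 arms and 21.4% of all miRNAs, and the same 2 had an unadjusted edgeR p under 0.05, as did 30.3%. The 3p arm passed the filter on low counts through 2 DZ, 3 NY and 1 PLL library and no aFM library. With aFM and DZ fitted alone it did not pass the filter. It was thus tested only through groups where it is higher than in aFM. Its call and its place in the counts of 2 above are a description only.

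Both calls rest on a narrow margin. The call of the 5p arm held in 3 of 12 fits that left out 1 library, those without DZ replicate C (log2 fold change -1.34), PLL replicate A (-1.05) or PLL replicate B (-1.12), and adjusted p reached 0.181 without DZ replicate A. The call of the 3p arm held only without DZ replicate C (-2.39) and adjusted p reached 0.180 without DZ replicate A. With RLE factors the 2 arms had adjusted p = 0.0535 and 0.0603 and with library totals 0.0744 each. With identical rows merged the 5p arm passed (adjusted p = 0.0392) and the 3p arm did not (0.0529). Neither arm changed its direction in any of these fits.

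**Figure D2:**
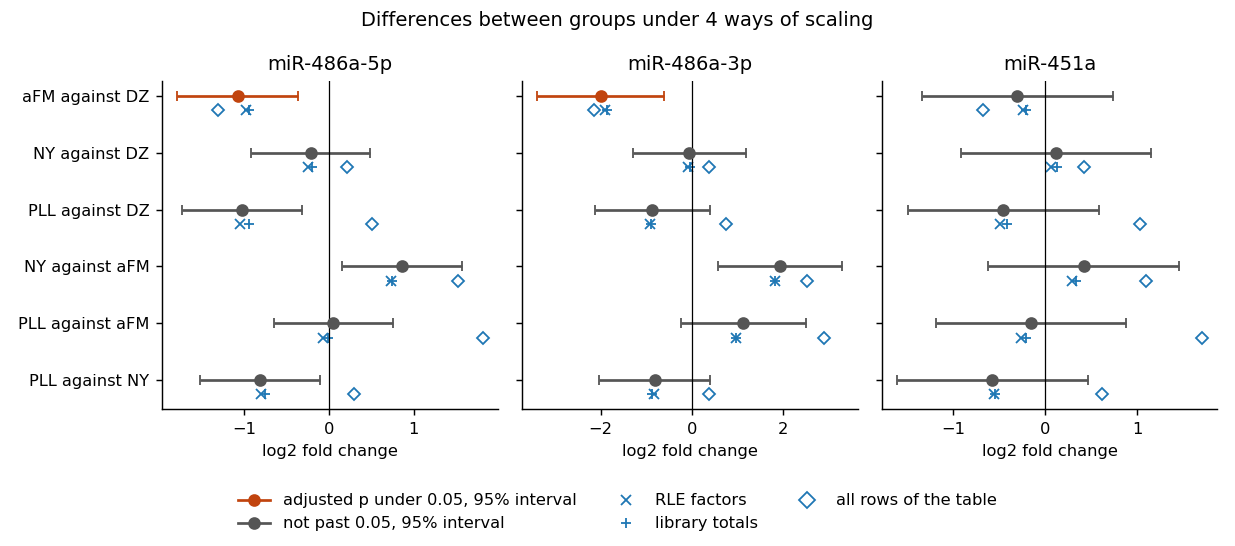
Log2 fold change (horizontal axes) of 3 erythroid miRNAs in the 6 comparisons between groups, with 95% intervals from the TMM-scaled fit, and the values with RLE factors, with library totals and with all rows of the table. The 2 calls are the miR-486 arms in aFM against DZ, at -1.07 and -2.00; with all rows the PLL values move to the right, to 1.81, 2.90 and 1.71 against aFM.

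In NY against DZ, edgeR called 0 of 3 members (0.758% of all miRNAs), 0 had an unadjusted p under 0.05 (14.4% of all) and DESeq2 called 0 (4.58% of all). miR-486a-5p had a log2 fold change of -0.21 (95% interval -0.91 to 0.49) and miR-451a of 0.12 (-0.92 to 1.16). miR-486a-3p had a value of -0.06 (-1.29 to 1.18). The intervals of both miR-486 arms ended above the values these arms had in aFM against DZ. Those values have 95% intervals of their own (-1.78 to -0.36 for the 5p arm and -3.39 to -0.60 for the 3p arm), which overlap the intervals here. Both comparisons share the DZ libraries, so no difference between them is read from this. With all rows of the table fitted, both arms had values above 0 in this comparison (0.21 and 0.36). Without DZ replicate C the values were -0.56 for miR-486a-5p, -0.54 for miR-486a-3p and -0.18 for miR-451a, whose sign thus turned, and none passed (edgeR adjusted p = 0.452, 0.817 and 0.960).

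In PLL against DZ, edgeR called 0 of 3 members (3.79% of all miRNAs), 1 had an unadjusted p under 0.05 (28.0% of all) and DESeq2 called 1 (15.6% of all). That one was miR-486a-5p, whose mean in PLL was 37997 CPM (log2 fold change -1.02 ± 0.33, edgeR adjusted p = 0.0750, DESeq2 adjusted p = 0.0339) and whose value turned to 0.50 with all rows fitted. In edgeR it passed in 2 of 12 fits that left out 1 library. These were without DZ replicate C (-1.41, adjusted p = 0.0117) and without PLL replicate B (-1.36, adjusted p = 0.0292). Without PLL replicate A the edgeR value was -0.89 (adjusted p = 0.201), and without DZ replicate A it was -0.84 (adjusted p = 0.158). miR-486a-3p had a value of -0.87 (adjusted p = 0.325) and miR-451a of -0.45 (adjusted p = 0.542). Without DZ replicate C these were -1.43 (adjusted p = 0.167) and -0.81 (adjusted p = 0.288).

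In NY against aFM, edgeR called 0 of 3 members (3.79% of all miRNAs), 2 had an unadjusted p under 0.05 (27.3% of all) and DESeq2 called 0 (11.5% of all). The log2 fold change was 0.86 for miR-486a-5p (adjusted p = 0.120) and 1.94 for miR-486a-3p (adjusted p = 0.0768). For both arms every NY library was above every aFM library, as for 24.2% of all miRNAs. The 3p arm passed the filter through no aFM library. Its value and its place in the count of 2 above are therefore a description only. Fitted with the NY and aFM libraries alone, miR-486a-5p passed (adjusted p = 0.0310). miR-486a-3p had the same adjusted p there, but it entered that fit only through the NY libraries, where it is high, and nothing is read from it. miR-451a had a value of 0.42 (95% interval -0.61 to 1.46), which was 1.17 without aFM replicate B and 0.041 without aFM replicate C.

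For PLL against aFM, miR-486a-5p had a log2 fold change of 0.05 with a 95% interval from -0.65 to 0.76, a value whose sign turned with RLE factors (-0.068). miR-486a-3p had a value of 1.13 (adjusted p = 0.208) and miR-451a of -0.15 (adjusted p = 0.812). edgeR called 0 of 3 members (9.09% of all miRNAs), DESeq2 called 0 (19.5% of all) and 0 had an unadjusted p under 0.05 (32.6% of all). In PLL against NY, edgeR called 0 of 3 (6.82% of all), DESeq2 called 0 (9.92% of all) and 1 had an unadjusted p under 0.05 (21.2% of all). It was miR-486a-5p (-0.81, adjusted p = 0.155; 0.29 with all rows fitted), where every PLL library was below every NY library, as for 15.2% of miRNAs.

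The fold changes above are relative to annotated miRNAs, and the share of predicted loci differed between libraries. In every 1000000 counts of all rows, miR-486a-5p stood at 9514, 17407 and 9904 in DZ replicates A, B and C and at 3840, 6024 and 8255 in aFM. It stood at 13017, 26158 and 9264 in NY and at 12507, 14573 and 19010 in PLL. On this scale every aFM library lay below every DZ and NY library, as in CPM, and also below every PLL library, with which aFM overlapped in CPM. PLL overlapped DZ and NY. Of all tested miRNAs, 7.58% had all aFM libraries below all DZ libraries on this scale, 34.8% below all NY libraries and 65.2% below all PLL libraries.
miR-451a stood at 7531 to 9949 on this scale in PLL, above all 3 DZ libraries (3132 to 7030) and all 3 aFM libraries (1769 to 6893). PLL lay above DZ in this way for 54.5% of all tested miRNAs and above aFM for the 65.2% given above. In the fit with all rows the median annotated miRNA moved from 0.22 to 1.66 in PLL against DZ and from 0.31 to 2.13 in PLL against aFM. There miR-486a-5p reached a log2 fold change of 1.81 in PLL against aFM (adjusted p = 0.0183), while 0.50 for PLL against DZ did not pass (adjusted p = 0.444). In aFM against DZ its value was -1.31 (adjusted p = 0.135) with a median of -0.53.

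**Figure D3:**
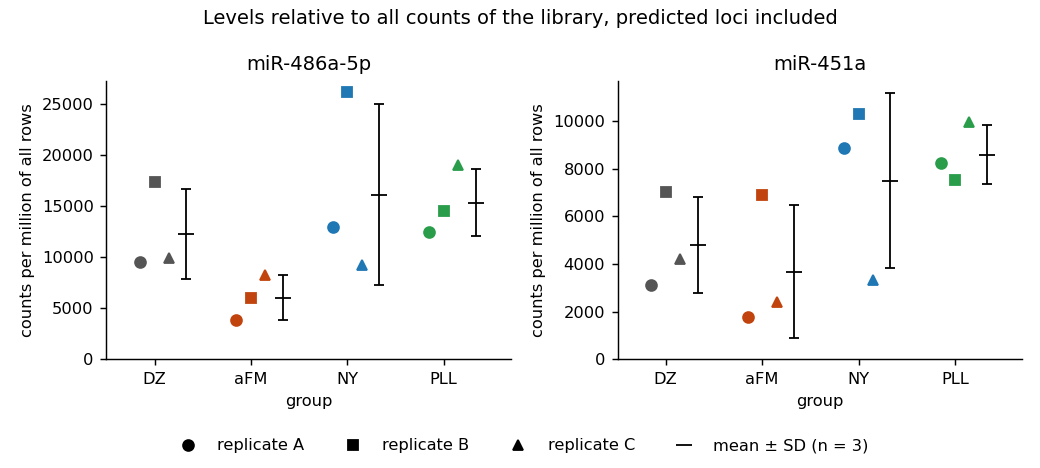
Counts of miR-486a-5p and miR-451a in every 1000000 counts of the library, predicted loci included (vertical axes), by group; symbols are replicates A, B and C and bars the mean ± SD of 3 libraries. miR-486a-5p in aFM (3840 to 8255) lies below the other groups on this scale, PLL (12507 to 19010) included.

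The ratio of the 2 abundant members within a library does not depend on any scaling. There were 28.9 to 114 counts of miR-451a per 100 of miR-486a-5p, with a median of 44.2. The ratio was 32.9, 40.4 and 42.4 in DZ replicates A, B and C and 65.9, 51.7 and 52.3 in PLL. In NY it was 68.0, 39.3 and 35.9, and in aFM it was 46.1, 114 and 28.9.
The 3 PLL ratios were above the 3 DZ ratios. With 3 libraries against 3 an exact p cannot go below 0.1, so this pair of groups was not tested alone and nothing is read from it. aFM replicate B was the one library with more miR-451a than miR-486a-5p. Over the 4 groups the exact permutation p was 0.681 (adjusted p = 0.681 over 3 ratios). It was 0.248 without aFM replicate B and 0.215 without aFM replicate C. Without aFM replicate B, the log2 fold change of miR-451a in aFM against DZ was -1.16 (edgeR adjusted p = 0.0981), and without aFM replicate C it was -0.032 (edgeR adjusted p = 0.994).

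**Figure D4:**
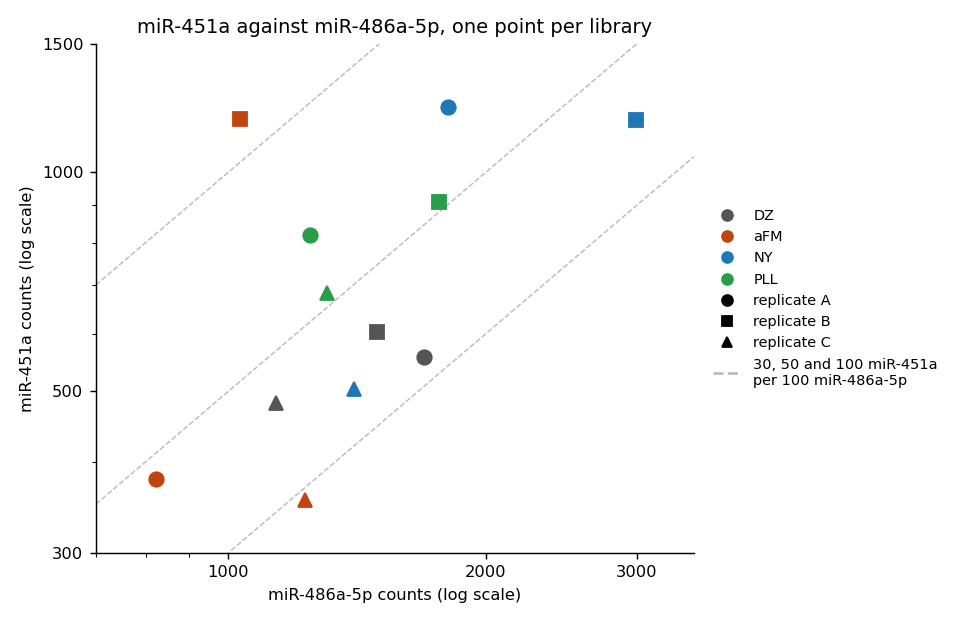
Counts of miR-451a (vertical axis, log scale) against counts of miR-486a-5p (horizontal axis, log scale), with 1 point per library; dashed lines mark 30, 50 and 100 counts of miR-451a per 100 of miR-486a-5p. aFM replicate B is the one point above 100, at 1182 against 1033 counts.

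The ratio of miR-144-3p to miR-451a gave an exact permutation p of 0.0546 over the 4 groups and adjusted p = 0.164 over the 3 ratios. There were 0.264, 0.508 and 0.845 counts of miR-144-3p per 100 of miR-451a in the aFM replicates and 0.365, 1.65 and 0 in PLL. In DZ the values were 0, 0.166 and 0, and in NY 0 throughout. The unadjusted exact p was 0.0221 without PLL replicate B and 0.00474 without PLL replicate C, so this result turns on single PLL libraries. miR-144-3p had a count in only 6 of the 12 libraries. In the others the pseudocount and the miR-451a count alone set the log2 ratio, so no difference between groups is read from these p-values.

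Of all other tested miRNAs, those most like miR-486a-5p over the 12 libraries were miR-16-2-3p (Pearson r = 0.87 of log2 CPM), miR-484 (r = 0.83) and miR-92a-3p, a miR-17-92 cluster miRNA (r = 0.79). Most like miR-451a were miR-92a-3p (r = 0.69), the leukocyte miRNA miR-142a-5p (r = 0.67) and miR-34c-5p, of the p53-responsive miR-34 family (r = 0.63). Among 126 distinct miRNAs, miR-486a-3p ranked 8 and miR-451a 9 in likeness to miR-486a-5p (r = 0.72 and 0.62). miR-486a-3p ranked 36 in likeness to miR-451a (r = 0.21). These are descriptions over 12 libraries that share groups and scaling factors. Since they were picked for following miR-486a-5p, the low levels of miR-16-2-3p and miR-484 in aFM are a description only. miR-16-2-3p averaged 689 ± 12.9 CPM in aFM and 2437 ± 1116 in DZ, and miR-484 averaged 330 ± 136 and 1241 ± 362 CPM.

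A list of 12 further miRNAs that are abundant or enriched in red cells held 12 with a count and 5 with enough to be tested. Of these 5, edgeR called 0 in each of the 6 comparisons, where it called 0.758% to 18.9% of all miRNAs. DESeq2 called 1 in NY against aFM (11.5% of all) and 0 in the other 5 (4.58% to 21.4% of all). In edgeR, at an unadjusted p under 0.05 there were 2 in aFM against DZ (30.3% of all miRNAs). There was 1 in NY against aFM (27.3% of all) and 1 in PLL against aFM (32.6% of all). The others had 0, where 14.4% to 28.0% of all miRNAs had such a p. The median over the 5 in aFM against DZ was -0.55, against -0.14 over all miRNAs tested. The most abundant, miR-92a-3p, averaged 9263 ± 2409 CPM in aFM and 15600 ± 4458 in DZ (log2 fold change -0.75, edgeR adjusted p = 0.140). miR-22-3p averaged 4755 ± 594 CPM in aFM, 6941 ± 861 in DZ and 8268 ± 635 in NY (NY against aFM 0.80, edgeR adjusted p = 0.0502).
miR-16-5p, usually among the most abundant miRNAs of red cells, had 0 to 20 counts per library. miR-16-2-3p, from a hairpin whose other arm is miR-16-5p, had 16 to 61.

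Markers of other cells were counted beside these members, and their part in the results was not tested. Of 4 leukocyte markers all 4 had a count and 1 was tested, and their summed level was 1571 to 2427 CPM in aFM against 3145 to 3719 in DZ, without overlap, 2162 to 3414 in NY and 2083 to 3767 in PLL. miR-142a-5p made up most of it and was called lower in aFM (1719 ± 234 CPM) than in DZ (3239 ± 275), with a log2 fold change of -0.91 (edgeR adjusted p = 0.0415). Of all single miRNAs, 15.9% had every aFM library below every DZ library. In this comparison edgeR called 9.85% of all miRNAs lower in aFM, and 18.9% either way. The other 3 leukocyte markers had few counts and no common direction between these groups. In aFM and DZ, miR-142a-3p had 6 and 0 counts, miR-150-5p 12 and 4, and miR-223-3p 4 and 6. Of 2 endothelial markers, miR-126a-3p was called higher in aFM (4809 ± 269 CPM) than in DZ (791 ± 563), with a log2 fold change of 2.63 (edgeR adjusted p = 0.00470). The other, miR-126a-5p, was not tested, with a sum of 5 counts over the aFM libraries and 4 over DZ. The summed level of both was 4623 to 5147 CPM in aFM, 493 to 1423 in DZ, 365 to 865 in NY and 1698 to 2323 in PLL.
Of 7 muscle markers, 4 had a count and miR-133a-5p, miR-208a-3p and miR-208b-3p were at 0 throughout. Their summed level was 1757 to 2638 CPM in NY, against 0 to 796 in DZ, 221 to 453 in aFM and 276 to 543 in PLL, so every NY library was above all others. NY lay above aFM in this way for 24.2% of all miRNAs, and PLL lay below NY for 15.2%. These shares are of single miRNAs between a pair of groups. No share was computed for a sum or for NY above all other groups at once. Most of the NY sum was miR-206-3p (1496 ± 308 CPM), the 1 marker tested. In edgeR it did not pass against DZ (adjusted p = 0.246) or aFM (0.0768). It was called lower in PLL than in NY (-3.15, edgeR adjusted p = 0.0356), where edgeR called 6.82% of all miRNAs. DZ replicate C, the DZ library lowest in all 3 tested members, had 46455 CPM of the 3 liver markers against 4207 and 5861 in the other DZ libraries and 15532 to 19008 in aFM. Values without that library are given beside the comparisons with DZ above. In bulk vesicle RNA, fewer vesicles that carry a miRNA and less of it per vesicle cannot be told apart.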

How the data were processed

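The authors deposited 1 table of whole-number counts, 1 column per library, not normalized, as the values show. The submitters' processing notes name FastQC, STAR, StringTie, DESeq2 and the build mm39 without versions or order. The sources used here give neither the miRNA caller nor its annotation. The table held 3509 rows: 1978 had mouse miRNA names, and the 1531 predicted loci (39.3% to 89.7% of a library's counts) entered neither totals nor tests.

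Counts were fitted with edgeR 4.0.16 (limma 3.58.1, R 4.3.3): filterByExpr (minimum count 10, minimum total 15), TMM factors, a term per group over all 12 libraries, two-sided quasi-likelihood tests and Benjamini-Hochberg adjustment over 132 miRNAs, with a threshold of 0.05. CPM used annotated totals times TMM factors. Identical rows stayed in the fit as deposited. Ratios (log2, pseudocount 0.5 counts) were tested over all 369600 assignments of libraries to groups. RNAfold 2.7.2 predicted the hairpins. DESeq2 1.42.0, RLE factors, library totals, no filter, merged copies, all rows, 2 groups alone, a replicate block and each library left out were alternatives. On simulated data for aFM against DZ, with 126 to 136 miRNAs tested, the fit found 26.1% of the 2-fold changes and 81.7% of the 4-fold ones.

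Every member is named, with the 3 miRNAs most alike by correlation and list members by abundance or call. Members and lists were chosen with earlier results of these data known. Libraries of a group differed by more than sampling noise. Deviations of libraries with the same letter correlated at 0.13 to 0.34 between NY and DZ, over 0.1 for all 3 letters; the other 5 comparisons did not reach this. Libraries with different letters were not compared in this way, so these values do not establish a pairing, and the labels name no shared source.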

Additional observations from a re-analysis of the deposited data

How the results depend on the processing

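The call of miR-486a-5p in aFM against DZ was lost with RLE factors (log2 fold change -0.98), library totals (-0.94), all rows (-1.31) and the replicate block (-1.03). That of miR-486a-3p was lost with RLE factors (-1.89), library totals (-1.86), no filter (-1.91), all rows (-2.15), merged copies (-2.00) and the replicate block (-1.89). In PLL against DZ, miR-486a-5p passed with no filter (-1.04) and DESeq2 (-1.05). In NY against aFM, miR-486a-5p passed with the 2 groups alone (0.74). The value of the 3p arm there (1.80) is not read, since it entered that fit only through the NY libraries. With all rows the 3p arm passed (2.51), which is a description only, as in the main fit. In PLL against aFM, miR-486a-5p turned with RLE factors (-0.068), library totals (-0.0037), no filter (-0.042), DESeq2 (-0.068) and the 2 groups alone (-0.088), and miR-451a with the replicate block (0.085). With all rows, the arms passed there (1.81 and 2.90) and miR-451a turned (1.71). The value of the 3p arm is again a description only. All rows also turned miR-486a-5p in NY against DZ (0.21), PLL against DZ (0.50) and PLL against NY (0.29), miR-486a-3p in the same comparisons (0.36, 0.75 and 0.38), and miR-451a in PLL against DZ (1.04) and NY (0.61). With all rows the median annotated miRNA moved too, from 0.02 to 0.24 in NY against DZ and from 0.18 to 0.78 in NY against aFM. In PLL against NY it moved from 0.17 to 1.48. The cause of these changes was not tested. In the 2-group fits of aFM with DZ and with PLL, miR-486a-3p did not pass the filter and gave no value.

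The 25 miRNAs called in aFM against DZ became 16 with RLE factors, 8 with library totals, 15 with no filter, 7 with all rows and 10 with the replicate block. The 1 call in NY against DZ became 7 with no filter and 6 with DESeq2. The 5 in PLL against DZ became 2 with library totals, 17 with no filter, 20 with DESeq2, 58 with all rows, 3 with the replicate block and 1 with the 2 groups alone. The 5 in NY against aFM became 11, 15, 9, 2 and 29 with no filter, DESeq2, all rows, the block and the 2 groups alone. The 12 in PLL against aFM became 25 with DESeq2 and 84 with all rows, and the 9 in PLL against NY became 16 with no filter and 34 with all rows. In NY against DZ the replicate block changed no call of a member.

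With 1 library left out at a time, the log2 fold change in aFM against DZ ran from -1.34 to -0.78 for miR-486a-5p and from -2.55 to -1.68 for miR-486a-3p. That of miR-486a-5p ran from -1.41 to -0.84 in PLL against DZ, from -0.56 to 0.010 in NY against DZ and from -0.24 to 0.16 in PLL against aFM. In NY against DZ, miR-486a-3p ran from -0.54 to 0.19 and miR-451a from -0.18 to 0.44, and miR-451a ran from -0.56 to 0.57 in PLL against aFM, positive only without aFM replicate B. In NY against aFM, miR-451a ran from 0.041 to 1.17. The counts of calls ran from 5 to 26 in aFM against DZ, 1 to 2 in NY against DZ, 4 to 17 in PLL against DZ, 1 to 12 in NY against aFM, 4 to 20 in PLL against aFM and 5 to 11 in PLL against NY. The exact permutation p for miR-144-3p to miR-451a ran from 0.00474 to 0.133, and no difference is read from it, as said above.

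Annotated depth was 17607 to 60436 counts per library, so miR-144-3p and miR-486a-3p are limited by counting.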

Other observations

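The arms of 2 other blood miRNAs were read in unequal numbers too. miR-142a-5p had 41 to 118 counts per library, while miR-142a-3p, the arm usually given as the leukocyte marker, had 0 to 7. miR-16-5p had 68 counts over all 12 libraries and miR-16-2-3p 439.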
